A study of Mus musculus with 6 samples.

Results

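A set of 10 tight junction genes was followed in sorted Paneth cells (PCs), which sit at the bottom of small intestinal crypts and secrete antimicrobial granules. The genes were chosen by name, with earlier results of these data known, and read by Ensembl identifier. They were the claudins Cldn1, Cldn2, Cldn3, Cldn4, Cldn7, Cldn15 and Cldn23, together with Ocln, F11r and Tjp1. All 10 were among the 55414 genes of the count table, and 9 of them had enough counts to be tested. Cldn1 was the exception, with a single count in each of PBS replicate 1 and TNF replicate 1 and 0 counts elsewhere.

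The mice were C57BL/6J animals labeled as Ifnar1 knockouts, and thus as lacking a chain of the receptor for type I interferons. Control mice had been injected with phosphate-buffered saline (PBS) and treated mice with tumor necrosis factor (TNF), and PCs were purified with a cell sorter after 15 h. Each group held 3 libraries, each from a different mouse. Control and treated mice shared the knockout, so no library shows these genes with an intact receptor, and the labels give no age, sex, TNF dose or sequencing batch.

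Tight junctions seal the space between neighboring epithelial cells near their apical side. Claudins are multi-pass membrane proteins whose extracellular loops meet across the gap, where some tighten the seal and others form channels for small ions or water. Occludin (Ocln) and junctional adhesion molecule A (JAM-A, F11r) lie in the same belt, and ZO-1 (Tjp1) ties these proteins to actin inside the cell. In the gut, claudins change along the crypt to villus axis, and TNF is a known regulator of the barrier.

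The libraries held between 12747484 and 17039511 counts. TNF replicate 1 stood apart from the rest of its group. Across the 13026 tested genes, its log2 CPM (counts scaled to a common library size) correlated at 0.937 to 0.945 with the PBS libraries but at 0.884 and 0.883 with TNF replicates 2 and 3, which correlated with each other at 0.954. Genes are not independent replicates, so these values are descriptions. Ifnar1 itself was counted in every library, at 5.19, 8.88 and 9.55 CPM under PBS and 5.18, 7.78 and 12.7 CPM under TNF. Without a wild-type library these levels check nothing about the knockout. TNF replicate 1 was kept as labeled, and results that turn on it are given with and without it.

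The upstream sequences of 4 members are shown because they belong to the members with the 3 largest log2 differences upward (Cldn2, Cldn4 and F11r) and the largest downward (Cldn15). They are RefSeq promoter windows (table build GRCm38.p6), placed on GRCm39 by exact match and cut before the first annotated exon base inside the window. For Cldn2, Cldn4 and F11r this is the boundary of the annotated gene. The Cldn15 stretch lies inside the annotated gene, directly before the first exon of most of its transcripts and in an intron of a transcript that starts farther upstream. Capitals mark the AP-1 motif TGANTCA, found on either strand. AP-1 is a family of transcription factors that responds to stress and cytokine signals.
Cldn2, chrX:138701307-138701479, plus strand: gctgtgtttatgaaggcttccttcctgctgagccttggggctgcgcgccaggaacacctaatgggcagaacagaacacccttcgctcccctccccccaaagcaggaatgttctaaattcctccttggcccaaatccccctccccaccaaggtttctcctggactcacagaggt
Cldn4, chr5:134975789-134976038, minus strand: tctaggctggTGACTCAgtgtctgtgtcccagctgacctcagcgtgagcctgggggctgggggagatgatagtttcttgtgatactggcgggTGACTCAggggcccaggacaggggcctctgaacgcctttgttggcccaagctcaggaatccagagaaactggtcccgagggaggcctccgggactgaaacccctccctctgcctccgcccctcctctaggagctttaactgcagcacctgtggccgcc
F11r, chr1:171264879-171265091, plus strand: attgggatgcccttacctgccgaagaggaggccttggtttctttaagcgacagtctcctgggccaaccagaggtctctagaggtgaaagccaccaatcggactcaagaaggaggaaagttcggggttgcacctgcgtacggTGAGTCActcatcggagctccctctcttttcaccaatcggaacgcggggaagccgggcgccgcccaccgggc
Cldn15, chr5:136996473-136996665, plus strand: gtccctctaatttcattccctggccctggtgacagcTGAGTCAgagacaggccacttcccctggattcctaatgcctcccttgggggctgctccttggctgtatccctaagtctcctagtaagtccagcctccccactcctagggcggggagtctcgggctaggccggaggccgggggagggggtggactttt

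Windows of 250 bases before the RefSeq start were matched for 9 of the 10 members, all but Cldn23. The AP-1 motif occurred in 3 of these genes, with 2 copies for Cldn4 and 1 each for F11r and Cldn15. Of all 32851 promoter windows of this length, 6.75% held it. That share is per window and not per gene, and Cldn7 and Ocln had 2 windows each. The STAT motif TTCNNNGAA occurred once, in the second of the 2 windows of Cldn7, against 7.02% of all windows. The consensus NF-kB motif occurred in 0 member windows, against 3.9% of all windows. A match in these letters is a description and not a binding site. Cldn4, whose transcripts were more abundant in TNF replicates 2 and 3, and Cldn15, whose transcripts were less abundant there, both carried TGANTCA. Cldn2, with the largest log2 difference, had 0 copies in its window. Any role of AP-1 was not tested.

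Levels of different genes are compared per kilobase (kb) of annotated exon, as CPM per kb on library sizes scaled by trimmed mean of M-values (TMM). In PBS libraries, Cldn3, a sealing claudin, had the highest level at 115 ± 10.5 CPM per kb (SD, n = 3). Cldn7, which also lies along the lateral membrane, followed at 91.5 ± 9.93 CPM per kb. These levels did not overlap with each other or with that of Cldn15 (43.5 ± 10.2), a sodium channel-forming claudin of the small intestine. The order of Cldn3 and Cldn7 depends on the length used, since per kb of the longest transcript Cldn7 had 145 ± 15.7 and Cldn3 115 ± 10.5.

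The next neighbors in the order were not separated by their spread, since Cldn15 overlapped with Cldn2 (41.2 ± 11.6), Cldn2 with Cldn4 (26.2 ± 6.67) and Cldn4 with F11r (23.8 ± 1.18). Ocln (8.22 ± 0.518) and Tjp1 (7.60 ± 0.722) lay below all F11r values and overlapped with each other. Cldn23 had 4.52 ± 0.717 CPM per kb, below all Tjp1 values. Averaged over all 6 libraries, Cldn3 and Cldn7 ranked at the 99.1 percentile of 13003 genes with a known length, and Cldn23 at the 74.2 percentile. Cldn1, a claudin of many tight epithelia, stood far below all of them. With 3 counts as the limit that 0 allows, its level could still reach 0.147 to 0.242 CPM in the 4 libraries without a count, counting error only.

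**Figure D1:**
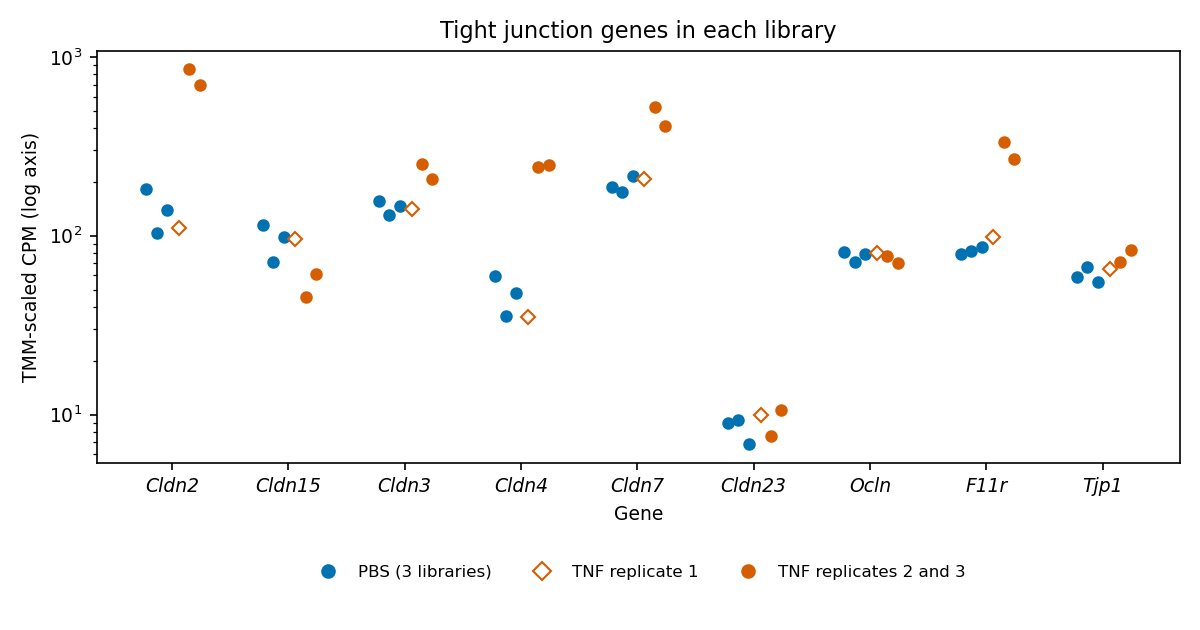
TMM-scaled CPM (log axis) of the 9 tested tight junction genes in each library, with PBS libraries in blue, TNF replicate 1 as an open orange diamond and TNF replicates 2 and 3 as filled orange points. For Cldn2, Cldn4, Cldn7 and F11r, and by less for Cldn3 and Tjp1, TNF replicates 2 and 3 lie above every PBS library. For these genes TNF replicate 1 lies within the PBS range, except above it for F11r (98.9 CPM) and just below it for Cldn4 (35.3 CPM). Ocln stays between 70.6 and 81.1 CPM in all 6 libraries.

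The comparison of TNF with PBS asked whether tight junction transcripts differ 15 h after TNF. Below, values under PBS or TNF follow the order of replicates 1, 2 and 3, and log2 differences are TNF minus PBS from the edgeR fit, ± 1 SE. Cldn2, Cldn4, Cldn7 and F11r had 2.13 to 6.01 times the PBS mean in TNF replicates 2 and 3, whereas Cldn15 had 0.481 and 0.643 times the PBS mean there. In TNF replicate 1 these same 5 genes had 0.741 to 1.20 times the PBS mean. With all 6 libraries, 0 of the 9 tested members passed an adjusted p under 0.05 (termed 5% here) in edgeR, as did 0% of all genes tested. At an unadjusted p under 0.05, 4 of the 9 were higher in TNF and 0 lower, where 8.25% of all genes were higher and 4% lower. Since the members were chosen with earlier results of these data known, such counts beside the share over all genes are descriptions only. With library size alone as the scaling, 4 members were higher and 1 lower, and over all genes 540 were higher and 731 lower in place of 1075 and 521. The libraries come from bulk RNA, so a change in the number of cells of a kind and a change in RNA per cell cannot be told apart.

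Cldn2 (ENSMUSG00000047230, chromosome X, 138701480 to 138712135), which forms a channel for cations and water and is known from leaky crypt epithelium, had 182, 103 and 139 CPM under PBS against 111, 850 and 696 CPM under TNF. TNF replicates 2 and 3 were far above all other libraries, while TNF replicate 1 lay within the PBS range, so the groups overlapped. Over all 6 libraries its log2 difference was 1.97 ± 0.61 (edgeR adjusted p 0.297). Without TNF replicate 1, Cldn2 rose by a log2 difference of 2.47 ± 0.28 (edgeR adjusted p 2.41e-04), the largest difference among the members in both fits.

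Cldn15 (ENSMUSG00000001739, chromosome 5, 136995470 to 137004712), the other channel-forming member, went the opposite way. It had 115, 70.9 and 98.6 CPM under PBS against 95.9, 45.5 and 60.9 CPM under TNF. TNF replicates 2 and 3 were the lowest libraries and TNF replicate 1 was in the middle of the PBS values. Its log2 difference was -0.49 ± 0.31 (edgeR adjusted p 0.541) with all libraries. With TNF replicate 1 left out, Cldn15 passed 5% narrowly, with a log2 difference of -0.81 ± 0.25 (edgeR adjusted p 0.0488). It was the only member lower past 5% in that fit.

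Cldn4 (ENSMUSG00000047501, chromosome 5, 134973973 to 134975788), a sealing claudin, had 59.6, 35.4 and 47.8 CPM under PBS against 35.3, 241 and 248 CPM under TNF. TNF replicate 1 was the lowest library of all, just below PBS replicate 2, and TNF replicates 2 and 3 were close to each other. The fitted log2 difference was 1.88 ± 0.59 (edgeR adjusted p 0.297), and without TNF replicate 1 Cldn4 rose by 2.38 ± 0.24 (adjusted p 1.32e-04).

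Cldn3 (ENSMUSG00000070473, chromosome 5, 135015068 to 135016326) starts 39280 bases from the start of Cldn4, on the other strand. It had 156, 130 and 147 CPM under PBS against 141, 252 and 208 CPM under TNF. TNF replicates 2 and 3 were above all PBS libraries, by less than for Cldn4, and TNF replicate 1 was within the PBS range. The log2 difference of Cldn3 was 0.47 ± 0.26 (edgeR adjusted p 0.489), and 0.69 ± 0.21 (adjusted p 0.0519) without TNF replicate 1, so it did not pass 5% in either fit. Expressed as a ratio of levels per kb, Cldn4 to Cldn3 was 0.265, 0.189 and 0.225 in the PBS libraries, 0.174 in TNF replicate 1 and 0.662 and 0.829 in TNF replicates 2 and 3. The balance between these neighboring genes thus differed in the same libraries as their levels.

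Cldn7 (ENSMUSG00000018569, chromosome 11, 69852648 to 69858711), a partner of the adhesion protein EpCAM, had 188, 175 and 216 CPM under PBS against 207, 524 and 411 CPM under TNF. Only TNF replicates 2 and 3 exceeded the PBS range. Its log2 difference was 0.98 ± 0.34 (edgeR adjusted p 0.324), and without TNF replicate 1 Cldn7 rose by 1.29 ± 0.23 (adjusted p 0.00359). Its exons share 331 bases with Elp5 on the opposite strand, and the use of strand in counting is not given in the sources used here. Elp5 had between 15.3 and 22.0 CPM and was highest in TNF replicate 1. Cldn3 also has an overlapping antisense gene, Wbscr25, which did not exceed 0.170 CPM in any library.

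Cldn23 (ENSMUSG00000055976, chromosome 8, 36291866 to 36293713), a claudin of differentiated gut epithelium, was low in all libraries. It had 8.94, 9.28 and 6.83 CPM under PBS against 9.94, 7.58 and 10.5 CPM under TNF. These values overlapped throughout, and the log2 difference was 0.16 ± 0.28 (edgeR adjusted p 0.846), with 0.13 ± 0.30 without TNF replicate 1. For Cldn23, TNF replicate 1 was not set apart from TNF replicates 2 and 3.

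F11r (ENSMUSG00000038235, chromosome 1, 171265092 to 171292958), the JAM-A gene, had 78.6, 82.2 and 86.7 CPM under PBS against 98.9, 333 and 269 CPM under TNF. All 3 TNF libraries exceeded all 3 PBS libraries, and F11r was the 1 member of 9 without overlap, where 16.9% of all tested genes had none. TNF replicate 1 was 1.20 times the PBS mean, against 4.04 and 3.26 times in TNF replicates 2 and 3. The log2 difference of F11r was 1.50 ± 0.39 (edgeR adjusted p 0.270). Its exons share 178 bases with the antisense gene Gm26641, which was not in the count table, so the level of Gm26641 could not be read. F11r was also the 1 member that passed 5% with DESeq2 on all 6 libraries, which called 1.83% of all genes and 1.56% as higher. Without TNF replicate 1, F11r rose by a log2 difference of 1.89 ± 0.21 (edgeR adjusted p 2.38e-04).

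Ocln (ENSMUSG00000021638, chromosome 13, 100630334 to 100689535) was the most even member, with 81.1, 71.7 and 78.5 CPM under PBS against 79.5, 77.4 and 70.6 CPM under TNF. The libraries of the groups were interleaved. Ocln exons share 167 bases with the antisense gene Gm60854, which was not in the count table. For Ocln the log2 difference was -0.023 ± 0.19 (edgeR adjusted p 0.970) and -0.039 ± 0.19 (adjusted p 0.920) without TNF replicate 1. Leaving out PBS replicate 1 or TNF replicate 3 made it positive, at 0.017 or 0.031. Tjp1 (ENSMUSG00000030516, chromosome 7, 64945898 to 65177529), the ZO-1 gene, had 58.9, 66.5 and 55.3 CPM under PBS against 65.5, 71.0 and 83.3 CPM under TNF. TNF replicates 2 and 3 were again the highest libraries, by a small margin. For Tjp1 the log2 difference was 0.28 ± 0.20 (edgeR adjusted p 0.590), and it was 0.37 ± 0.19 (adjusted p 0.233) without TNF replicate 1. A p above the threshold does not show that these levels were equal.

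**Figure D2:**
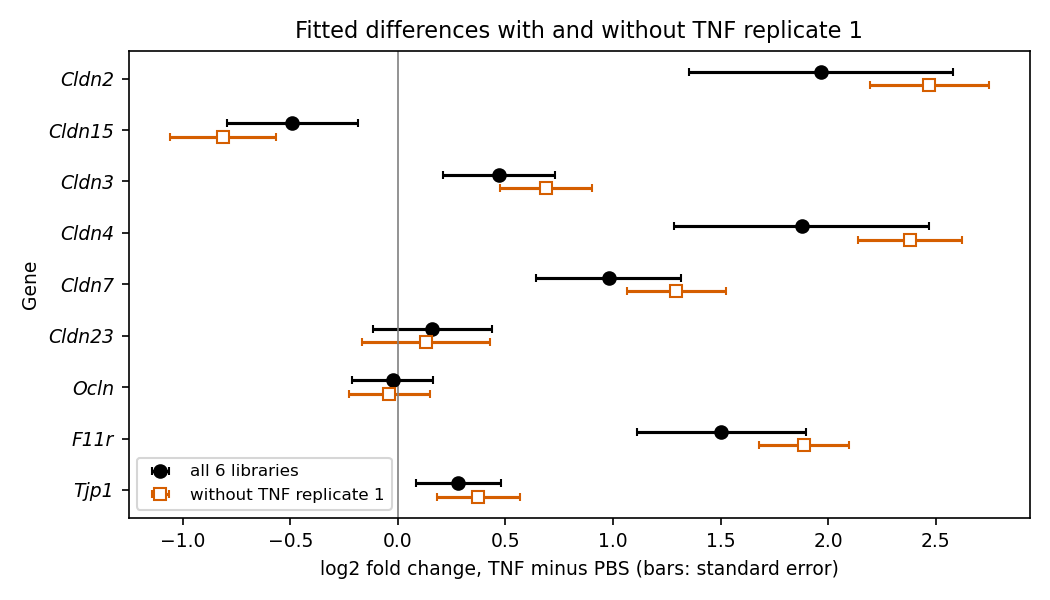
Fitted log2 difference (log2 fold change, TNF minus PBS) of each tested member (horizontal axis, bars of 1 standard error), with all 6 libraries in black and without TNF replicate 1 in orange. Leaving out TNF replicate 1 moves Cldn2 from 1.97 to 2.47 and Cldn15 from -0.49 to -0.81, and the error bars of Cldn2, Cldn4 and F11r become shorter.

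Without TNF replicate 1, 5 of the 9 members passed 5% in edgeR, with Cldn2, Cldn4, Cldn7 and F11r higher and Cldn15 lower. In that fit 14.5% of all 13660 genes passed, 9.1% higher and 5.4% lower. Leaving out TNF replicate 1 follows from what the libraries look like and not from a label, so the 5 calls describe TNF replicates 2 and 3 against the PBS libraries. Without any 1 of the remaining 5 libraries the number was 0. With all 6 libraries, other settings also called members. Fitted with no filter on low counts, Cldn2, Cldn4 and F11r passed, as did 2.94% of all genes. With limma-voom and sample weights 4 members passed (Cldn2, Cldn4, Cldn7 and F11r), as did 11.5% of all genes. In 6 of the 9 members TNF replicate 1 lay within the PBS range, compared with 45.2% of all tested genes.

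Together the 10 members took 0.0823% to 0.0936% of all counts under PBS, and 0.0672%, 0.288% and 0.188% under TNF. The make-up of the claudin transcripts was described next, as the share of each gene in the summed level per kb of the 7 claudins. The sum itself was 356, 273 and 335 CPM per kb in PBS replicates 1 to 3, 311 in TNF replicate 1, and 853 and 732 in TNF replicates 2 and 3. Cldn2 took 14.9%, 10.96% and 12.1% in the PBS libraries, 10.4% in TNF replicate 1, and 29.0% and 27.7% in TNF replicates 2 and 3. Cldn4 took 7.13% to 9.21% in PBS, 6.25% in TNF replicate 1, and 15.5% and 18.7% in TNF replicates 2 and 3. Both therefore held a larger share in the last 2 TNF libraries, on top of a larger sum.

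Cldn3 and Cldn15 held smaller shares there. The level of Cldn3 itself was higher in TNF replicates 2 and 3, at 1.75 and 1.44 times the PBS mean. That of Cldn15 was lower, at 0.481 and 0.643 times. Cldn3 took 34.7% to 37.8% in PBS, 35.9% in TNF replicate 1, and 23.5% and 22.5% in TNF replicates 2 and 3. Cldn15 took 11.9% to 14.8% in PBS, 14.2% in TNF replicate 1, and 2.45% and 3.82% in TNF replicates 2 and 3. Cldn7 stayed between 25.0% and 31.5% in all 6 libraries. The ratio of the channel-forming pair, Cldn2 to Cldn15 per kb, was 1.01, 0.920 and 0.892 in PBS, 0.732 in TNF replicate 1, and 11.8 and 7.25 in TNF replicates 2 and 3. These shares are a description without a test.

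**Figure D3:**
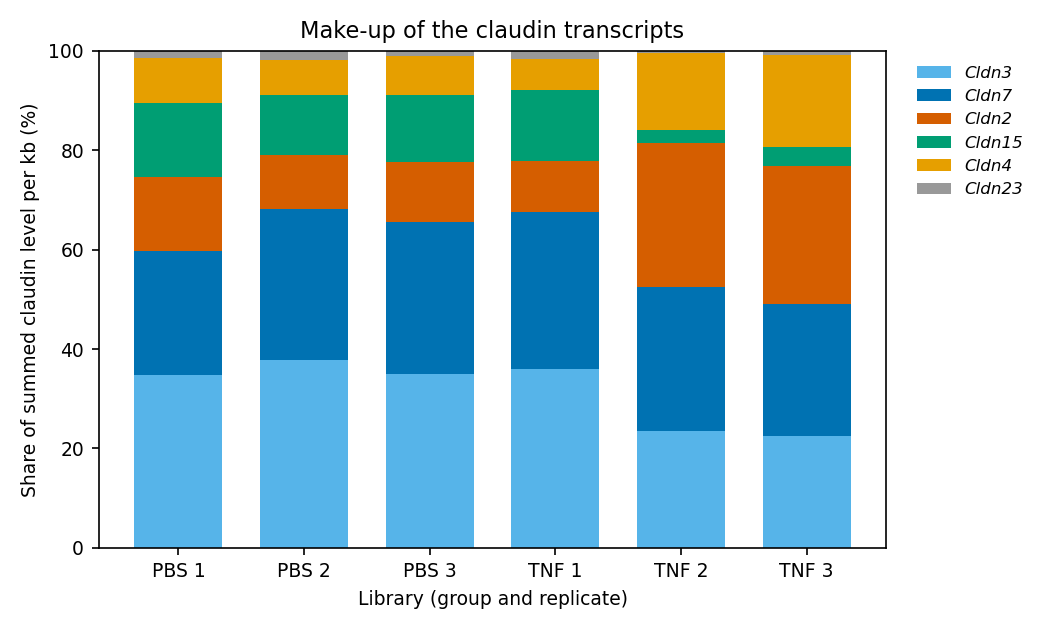
Share (%) of each member claudin in the summed claudin level per kb, 1 stacked bar per library. The bars of the 3 PBS libraries and TNF replicate 1 look alike, with Cldn2 at 10.4% to 14.9%, and in TNF replicates 2 and 3 the Cldn2 and Cldn4 blocks are larger while Cldn15 shrinks to 2.45% and 3.82%.

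Other junction genes were taken from 7 lists. With all 6 libraries, 0 of the 80 tested list genes passed 5% in edgeR, and the median over all genes was -0.00059. At an unadjusted p under 0.05, 12 of the 80 were higher and 1 lower, where 8.25% of all genes were higher and 4% lower. With library size alone as the scaling the list counts were 5 and 1, beside 540 and 731 of all 13026 genes. The median of the 9 members was 0.47, with 7 positive and 2 negative. Over all genes 6508 were positive and 6518 negative, and 5420 and 7606 with library size alone. With TNF replicate 1 left out, 25 of 81 list genes were higher and 1 lower past 5%, where 9.1% of all genes were higher and 5.4% lower. The lists, like the members, were chosen with earlier results of these data known, so these counts are descriptions only.

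Of 18 further claudins, 17 were in the count table and 3 were tested. Cldn5, the claudin of endothelial cells, had 0 counts in all 6 libraries. Cldn12 had 50.3 to 57.6 CPM under PBS against 64.6, 106 and 107 CPM under TNF, without overlap (log2 difference 0.81 ± 0.24, edgeR adjusted p 0.288). Cldn14 was low, at 0.721 to 1.98 CPM under PBS against 0.340, 6.41 and 5.31 CPM under TNF (log2 difference 1.54 ± 0.86, edgeR adjusted p 0.497). Both passed 5% without TNF replicate 1, at 1.03 and 2.09. Cldn9, the third tested one, had -0.77 ± 0.84.

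Of 12 other tight junction membrane proteins, 8 were tested, with a median log2 difference of 0.46. Without TNF replicate 1, 5 were higher past 5%, as were 9.1% of all genes. Igsf5, which encodes the adhesion molecule JAM4, had 3.97 to 8.60 CPM under PBS against 7.31, 16.3 and 27.6 CPM under TNF (log2 difference 1.34 ± 0.47, edgeR adjusted p 0.326). Crb3, a Crumbs protein of the apical domain, had 26.4 to 30.9 CPM under PBS against 31.1, 51.6 and 48.0 CPM under TNF (log2 difference 0.57 ± 0.23, edgeR adjusted p 0.375). Jam3, another member of the JAM family, had 0 counts in all libraries.

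Scaffold and polarity genes were closer to the background, with a median log2 difference of 0.11 over 21 tested genes, 15 positive and 6 negative (12 and 9 under 3 of the other scalings). Cgnl1, which encodes the junctional linker paracingulin, differed most by p. It had 12.4 to 15.6 CPM under PBS against 19.0, 41.3 and 48.2 CPM under TNF (log2 difference 1.33 ± 0.33, edgeR adjusted p 0.270). Pals1, a polarity scaffold, had 0.55 ± 0.26 (edgeR adjusted p 0.428). Without TNF replicate 1, 3 of 22 scaffold genes (Tjp3, Cgnl1 and Pals1) were higher past 5%, as were 9.1% of all genes. None of the 21 reached the log2 difference of Cldn2, Cldn4 or F11r.

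Of the adherens junction and desmosome genes, 14 of 16 had a positive log2 difference, beside 6508 of all 13026 genes. The list median was 0.46. Perp, a desmosome protein, had 70.7 to 87.9 CPM under PBS against 113, 188 and 199 CPM under TNF (log2 difference 1.03 ± 0.26, edgeR adjusted p 0.270). Nectin2, an adhesion receptor, had 0.68 ± 0.30 (adjusted p 0.404). With TNF replicate 1 left out, 8 of 16 passed 5%, all of them higher, where 9.1% of all genes were higher. Among the 8 were Cdh1, the E-cadherin gene, at 0.87 and Cdh17 at 1.05.

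Actomyosin genes had a median of 0.23 over 14 tested genes. Without TNF replicate 1, 4 of 14 (Myl6, Myl12a, Actb and Cttn) were higher past 5%, as were 9.1% of all genes. The myosin light chain genes Myl12a (log2 difference 1.01 ± 0.29, edgeR adjusted p 0.278) and Myl6 (0.57 ± 0.19, adjusted p 0.311) had the smallest p-values. Myl6 had 67.8 to 77.2 CPM under PBS against 99.6, 110 and 110 CPM under TNF, so TNF replicate 1 moved with the other TNF libraries. Of the EpCAM and matriptase list, 5 of 5 tested genes were positive (4 of 5 under the other scalings), with a median of 0.92. Epcam, the partner of Cldn7, had 403 to 471 CPM under PBS against 456, 1080 and 970 CPM under TNF (log2 difference 0.93 ± 0.35, edgeR adjusted p 0.339). St14, which encodes the protease matriptase that cleaves EpCAM, had 59.9 to 90.0 CPM under PBS against 61.1, 314 and 208 CPM under TNF (log2 difference 1.38 ± 0.49, edgeR adjusted p 0.327). When TNF replicate 1 was omitted, Epcam, St14 and Spint1, the gene of a matriptase inhibitor, rose past 5%, at 1.24, 1.82 and 1.26.

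Of the epithelial transcription factors, 0 of 13 passed 5% with all libraries, 11 had a negative log2 difference and the median was -0.30. The number of negative ones was 8 without PBS replicate 1 or without TNF replicate 3, and 9 without TNF replicate 1. Elf3 had 127 to 163 CPM under PBS against 82.9, 112 and 98.6 CPM under TNF, without overlap (log2 difference -0.53 ± 0.22, edgeR adjusted p 0.388). Klf4 had -0.47 ± 0.25 (adjusted p 0.471). When TNF replicate 1 was omitted, Gata4 was the 1 list gene that fell past 5% (-1.85, edgeR adjusted p 7.61e-04).

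**Figure D4:**
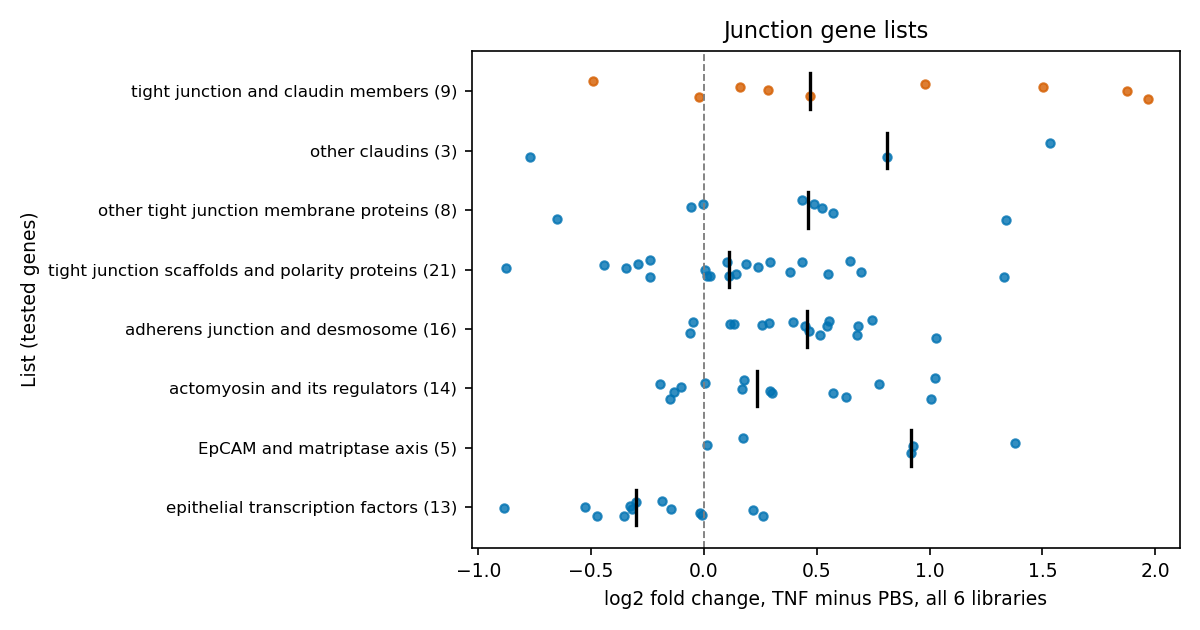
Log2 fold change, TNF minus PBS, with all 6 libraries, of each tested gene in 8 groups (points), with the median of each group as a black bar and the median of all 13026 genes as a dashed line at -0.00059. The members (orange, median 0.47) span -0.49 to 1.97, and scaffold and polarity genes sit nearest to the dashed line at a median of 0.11.

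Marker lists were read to see which cells the libraries held. PC markers had summed levels of 395861 to 484917 CPM under PBS against 662712, 286413 and 463365 CPM under TNF, with Lyz1 the highest. All 9 PC markers were counted, and 1 was lower past 5% without TNF replicate 1. Enterocyte markers, of which 12 of 12 were counted, summed to 343 to 387 CPM in PBS and 290, 143 and 103 CPM under TNF, with Anpep the highest, and 8 were lower past 5% without TNF replicate 1. Stem cell markers (6 of 6 counted) summed to 2554 to 3144 CPM under PBS against 4692, 901 and 797 CPM under TNF, mostly Olfm4, and 3 were lower past 5% without TNF replicate 1. In that fit 5.4% of all genes were lower past 5%. The TNF libraries in which Cldn2, Cldn4, Cldn7 and F11r were high were also low in the summed enterocyte and stem cell markers. TNF replicate 1 was below the PBS range in the summed enterocyte markers too (290 CPM), but above it in the stem cell markers (4692 CPM). Not every marker of these lists was low in TNF replicates 2 and 3. In TNF replicate 2, Lgr5 (68.3 CPM) and Mttp (23.3 CPM) lay within the PBS range, and Slc12a2 (510 CPM) was above it. Fabp1 lay within the PBS range in TNF replicates 2 and 3. The part of these cells in the claudin differences was not tested.

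Goblet cell markers (7 of 7 counted) summed to 3098 to 3460 CPM under PBS against 3250, 3204 and 2517 CPM under TNF. Tuft cell markers ranged from 399 to 1392 CPM in PBS and 477 to 925 CPM in TNF, and enteroendocrine markers from 24.6 to 101 CPM and 22.4 to 103 CPM. Muc2, Trpm5 and Chgb were the highest genes of these lists. When TNF replicate 1 was omitted, 4 goblet cell markers and 0 tuft or enteroendocrine markers were lower past 5%, as were 5.4% of all genes. The other goblet cell markers, Muc2, Spdef and Atoh1, had positive log2 differences in that fit (0.46, 0.34 and 0.80), none past 5%. Immune cell markers, led by Ptprc in mean count and by Lyz2 in mean CPM, reached at most 53.1 CPM in sum, of which Lyz2 may share reads with the near-identical Lyz1. Of the endothelial markers, Cdh5 and Kdr were at 0 in all libraries and Tek was the highest. Stromal markers, led by Col3a1, summed to at most 0.667 CPM.

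For the 3 members with the highest level per kb over all libraries, the genes with the most similar pattern were listed by the Pearson correlation of log2 CPM over the 6 libraries. Cldn2 was most like R3hdm4 (0.999) and Gramd2b (0.998). Cldn3 was most like Pcif1 (0.999) and Rflnb (0.996), and Cldn7 most like Dbnl (0.997) and Src (0.996). Many genes share such a pattern, as 435 genes correlated above 0.95 with Cldn2, 325 with Cldn3 and 352 with Cldn7. The points are the same 6 libraries for every gene, and in each of the 6 genes named here TNF replicates 2 and 3 were the highest.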

How the data were processed

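RNA of sorted PCs from 3 PBS and 3 TNF mice was sequenced, with 1 library per mouse. The authors deposited 1 table of raw counts per Ensembl gene, with no unused sample column. Per the labels, the submitters' processing notes name FastQC, Trimmomatic 0.39, STAR 2.7.10a, DESeq2 and build mm39 without roles. Which counter and annotation were used, whether strand was read and how shared reads were handled is not given in the sources used here. No paper describing this experiment was at hand.

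Symbols, positions (1-based) and exon lengths came from GENCODE for GRCm39, which matched 54749 of 55414 identifiers. TNF was compared with PBS in R 4.3.3 with edgeR 4.0.16: filterByExpr (minimum count 10, minimum total 15), TMM factors, the two-sided quasi-likelihood test with group as the only term, and Benjamini-Hochberg adjustment over 13026 tested genes, which held 99.8% of counts. The standard error is the log2 fold change divided by the root of F. Values are CPM on TMM-scaled library sizes. Depth was 12747484 to 17039511 counts. Scripts were tested on simulated data.

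Alternatives were other scalings, other filters, leaving out each library, a replicate block, DESeq2 1.42.0 and limma 3.58.1 (voom, with and without sample weights). All members, the genes called in each junction list (or the 2 with the smallest p where none was), and the marker lists are reported. Members and lists were chosen with earlier results of these data known. Further genes passing 5% without TNF replicate 1, and Cldn5, Cldn9 and Jam3, were named after their values were seen.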

Additional observations from a re-analysis of the deposited data

How the results depend on the processing

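With all 6 libraries, the count of genes past 5% stayed 0 for members, junction lists and all genes under several edgeR settings. These were RLE, library-size and upper-quartile factors, TMM factors without genes above 1% of counts, and a mean CPM of at least 5. The limma-voom fit without sample weights, run only with TMM factors and the main filter, also gave 0 for each. With no low-count filter in edgeR the count was 3 members (Cldn2, Cldn4 and F11r), 6 list genes and 690 of all genes. DESeq2 gave 1 member, 2 list genes and 259 genes, and limma-voom with sample weights 4 members, 18 list genes and 1501 genes. Leaving out 1 library gave 0 to 5 members, 0 to 26 list genes and 0 to 1980 genes, the upper value each time without TNF replicate 1. The cause was not tested. Among 16 alternatives per gene, adjusted p-values ran from 1.47e-06 to 0.897 for Cldn2, from 1.02e-07 to 0.897 for Cldn4, from 0.00359 to 0.897 for Cldn7, from 6.95e-05 to 0.897 for F11r and from 0.0488 to 0.930 for Cldn15.

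The log2 difference of Ocln was -0.023 with all libraries and -0.076 to 0.031 when 1 was left out, positive without PBS replicate 1 (0.017) or TNF replicate 3 (0.031). That of Cldn23 was 0.16, and -0.0064 to 0.26 when 1 was left out, negative without PBS replicate 3. No other sign changed among the 9 members and 14 named list genes under these alternatives. Cldn14 gave no value at a mean CPM of at least 5. With library size alone, the median over all genes was -0.11. The difference in Cldn2 share, 9.70 percentage points with all libraries, was 8.84 with the longest transcript as length and 6.38 to 15.7 when 1 library was left out. Without TNF replicate 1 the share differences were 15.7 points for Cldn2, -12.8 for Cldn3, 9.03 for Cldn4 and -10.3 for Cldn15, and without TNF replicate 3 that of Cldn4 was 2.82, against 5.41 with all libraries.

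The labels do not say whether replicate numbers pair the mice. Deviations of same-numbered libraries correlated at -0.013, -0.075 and 0.031, and those of different-numbered libraries at -0.058 to 0.070. Such correlations over genes cannot show whether the mice were paired. With the replicate block, 0 members, 0 list genes and 0 of all genes passed 5%, and Cldn2 had a log2 difference of 1.65 (edgeR adjusted p 0.494).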
